A study of Mus musculus with 90 samples.

Results

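Imprinted genes and their control regions were followed through the peak lists of H3K9me3, Trim28 and Uhrf1 in mouse embryonic stem cells (ESCs). A list of 44 imprinted genes was taken, of which 43 are in the GENCODE vM1 annotation of mm9, beside 22328 other protein_coding genes. Kcnq1ot1 is not in that annotation and has no window of its own. Each gene was measured as a window, the gene body with 10 kb on both sides, and the 43 windows merge into 33 separate loci. A window was counted as having a peak when it shared at least 1 bp with it. Of the genes, 39 are protein_coding and 4 (H19, Airn, Meg3 and Rian) are noncoding.

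The lists came from 3 lines, with 2 replicates per line and mark. The WT line is V6.5. TKOL cells are J1 cells with Dnmt3a and Dnmt3b knocked out and with an shRNA against Dnmt1, kept as a clonal line. DKO0 cells were made from TKOL by Cre excision of the shRNA and sorting of GFP-negative cells, so that Dnmt1 was present again while Dnmt3a and Dnmt3b were still missing. Strain and genotype therefore cannot be told apart between WT and the other lines. ESCs were maintained on feeder layers of embryonic fibroblasts of CD1 mice. The labels do not give the passage of the DKO0 cells used for these lists. The names of the DKO0 lists in the paper's reporting summary hold an earlier passage for Uhrf1 than for H3K9me3 and Trim28. H3K9me3 and Trim28 were measured by chromatin immunoprecipitation sequencing (ChIP-seq), and Uhrf1 by ChIPmentation in clones with a homozygous 3xFLAG tag on endogenous Uhrf1. The series holds 90 samples, and 18 single-replicate lists and 6 lists of merged replicates (TKOL and DKO0) were used. Nothing in the labels says that replicates were separate cultures, so p-values measure only the spread between lists.

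Imprinted genes are expressed from the maternal or the paternal copy. Which copy is silent is set by control regions that carry DNA methylation from the germline on a single allele. The zinc finger protein Zfp57 binds a methylated hexamer in these regions and brings in Trim28 (also known as Kap1), a scaffold for the H3K9 methyltransferase Setdb1, which deposits H3K9me3. Uhrf1 binds hemimethylated CpGs and H3K9me3 and directs Dnmt1 to newly replicated DNA. Most control regions, among them those of Peg3, Snrpn and Airn, are methylated on the maternal copy and lie at a promoter CpG island, whereas those of H19, Rasgrf1 and the Dlk1-Meg3 cluster are methylated on the paternal copy and lie between genes.

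A single Trim28 list stood apart at these genes. TKOL replicate 1 had a Trim28 peak in 32 of the 43 windows and TKOL replicate 2 in 0, although both belong to the same group. Peak names begin with DH in the list of TKOL replicate 1 and with AM in the 17 other single-replicate lists, and what the letters stand for is not stated in the sources used here. The length covered by peaks in both TKOL lists was 15.8% of the length covered in either, against 25.3% to 26.6% for the pairs among TKOL replicate 2 and the DKO0 lists and 14.8% for both WT lists. The number of peaks differed too, with 31911 in TKOL replicate 1 and between 15995 and 25716 in the 5 other Trim28 lists. Differences between lines in Trim28 are given below with and without TKOL replicate 1, and a statement that a list has no peak refers to the single-replicate lists unless a merged list is named.

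Stretches of control regions that hold several copies of the Zfp57 hexamer are shown first, because Trim28 peaks of TKOL replicate 1 lay on them. TGCCGC and its reverse complement GCGGCA were searched on the plus strand of mm9, and overlapping copies were each counted. Within each island of the control regions, the 300 bases outside annotated exons with most copies were taken. The islands of Impact, which hold 4 copies in all, were left out of this search. Of the regions searched, the 6 with most copies are printed, with ties taken in order of chromosome name. They are given 5′ to 3′ on the plus strand, with the hexamers in capitals. They lie at chr10:12810850-12811149 in an intron of Plagl1, chr17:12934614-12934913 in introns of Airn and Igf2r, and chr2:152512511-152512810 in an intron of H13 just upstream of Mcts2. The others lie at chr6:30687599-30687898 in Mest, chr7:6682151-6682450 in Peg3 and chr7:67149572-67149871 in Snrpn, each in an intron.
Plagl1: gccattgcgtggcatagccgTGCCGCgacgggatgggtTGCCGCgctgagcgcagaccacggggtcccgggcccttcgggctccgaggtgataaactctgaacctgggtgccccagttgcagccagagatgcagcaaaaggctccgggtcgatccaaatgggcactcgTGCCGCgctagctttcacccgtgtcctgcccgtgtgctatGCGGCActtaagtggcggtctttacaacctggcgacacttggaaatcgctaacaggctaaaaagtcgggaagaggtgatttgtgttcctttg
Airn: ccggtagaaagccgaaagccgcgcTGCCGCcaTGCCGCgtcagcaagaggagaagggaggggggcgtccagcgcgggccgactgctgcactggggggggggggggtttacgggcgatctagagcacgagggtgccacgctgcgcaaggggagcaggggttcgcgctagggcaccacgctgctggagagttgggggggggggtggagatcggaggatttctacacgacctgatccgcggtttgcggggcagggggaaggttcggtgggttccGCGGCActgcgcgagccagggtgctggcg
Mcts2: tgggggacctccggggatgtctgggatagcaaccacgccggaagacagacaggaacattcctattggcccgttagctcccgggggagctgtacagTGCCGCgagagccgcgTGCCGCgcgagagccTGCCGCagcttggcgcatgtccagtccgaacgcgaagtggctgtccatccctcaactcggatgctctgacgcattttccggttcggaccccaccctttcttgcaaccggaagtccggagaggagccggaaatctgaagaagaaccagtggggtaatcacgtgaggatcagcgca
Mest: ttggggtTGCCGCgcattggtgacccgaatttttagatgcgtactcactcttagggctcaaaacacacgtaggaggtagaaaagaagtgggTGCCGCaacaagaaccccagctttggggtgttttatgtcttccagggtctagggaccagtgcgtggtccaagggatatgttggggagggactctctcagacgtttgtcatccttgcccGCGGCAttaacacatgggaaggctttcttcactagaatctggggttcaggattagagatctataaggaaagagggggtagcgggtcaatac
Peg3: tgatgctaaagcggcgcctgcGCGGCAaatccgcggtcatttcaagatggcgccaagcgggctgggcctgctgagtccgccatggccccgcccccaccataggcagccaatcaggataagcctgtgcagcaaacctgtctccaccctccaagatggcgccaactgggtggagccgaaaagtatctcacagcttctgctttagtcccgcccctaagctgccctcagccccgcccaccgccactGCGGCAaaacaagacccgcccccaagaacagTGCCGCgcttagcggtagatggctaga
Snrpn: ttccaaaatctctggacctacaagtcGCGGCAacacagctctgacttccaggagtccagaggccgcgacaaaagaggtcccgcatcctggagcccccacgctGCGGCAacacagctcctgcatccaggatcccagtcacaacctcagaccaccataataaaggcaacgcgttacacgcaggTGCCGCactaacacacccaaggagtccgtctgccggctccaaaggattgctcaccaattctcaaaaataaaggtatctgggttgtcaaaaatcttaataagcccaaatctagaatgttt

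The Plagl1 stretch holds 4 copies and each of the others 3. In TKOL replicate 1 a Trim28 peak covered all 300 bases of the Plagl1, Mcts2 and Mest stretches, 257 of the Peg3 stretch, 125 of the Snrpn stretch and 50 of the Airn stretch. Among all 39599 CpG islands found in mm9, 39.3% had at least 1 copy in some window of 300 bases and 2.34% had at least 3. Of the 92 islands in windows of imprinted genes, 54 (58.7%) had at least 1 and 16 (17.4%) at least 3. Islands at starts of protein_coding genes (14318) had at least 1 copy in 54.5%, so the 58.7% is near that background. The share of start islands with at least 3 copies was not counted. Of the 16 islands at the starts of the control genes described next, 13 had at least 1 and 8 at least 3. The hexamer played no part in choosing the genes, and a match is a match of letters and not a measured binding site.

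For the promoter type of control region, the CpG islands within 1 kb of an annotated start of 12 genes were examined (Airn, Peg3, Peg10, Snrpn, Mest, Plagl1, Nnat, Impact, Zrsr1, Nap1l5, Mcts2 and Slc38a4), each extended by 500 bp. Of these, 11 had a Trim28 peak in TKOL replicate 1, where 6.8% of the 14318 islands at starts of protein_coding genes had one. In TKOL replicate 2 and in both DKO0 lists 0 of the 12 had a peak, with 0.824%, 1.17% and 0.901% of the start islands. WT replicate 1 had a peak at 5 of the 12 and WT replicate 2 at 1 of the 12, with 2.68% and 2.16% of the start islands. The mean of TKOL exceeded that of WT by 2.5 islands (exact two-sided permutation test over 4 lists, p = 1) and is 3 islands below it without TKOL replicate 1. The mean of DKO0 differed from that of TKOL by -5.5 islands (exact two-sided permutation test, p = 1) and by 0 without TKOL replicate 1. The smallest p that 2 against 2 lists allow is 0.33.

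**Figure D1:**
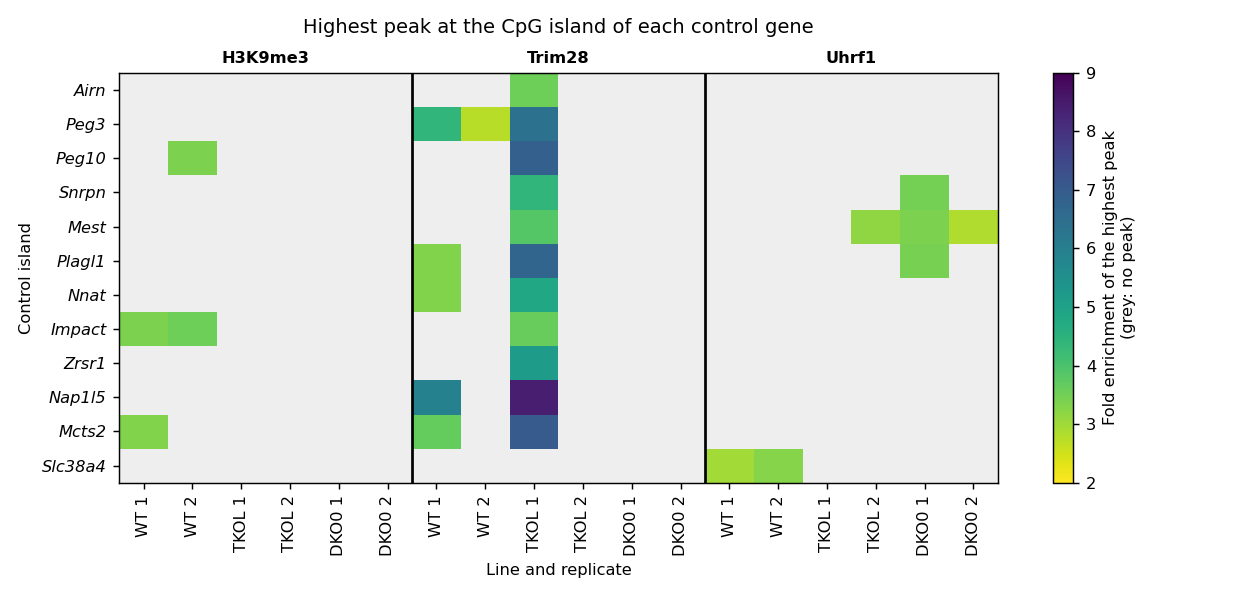
Highest fold enrichment of a peak at the CpG islands of 12 control genes (rows) in each single-replicate list (columns, by mark, line and replicate), with grey where the list has no peak. The Trim28 column of TKOL replicate 1 is filled for 11 of 12 genes, and the H3K9me3 columns of TKOL and DKO0 are empty.

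The fold enrichment, the ratio of ChIP signal to the local background that MACS2 gives for each peak, was highest at Nap1l5, a retrogene within Herc3, with 8.40 in TKOL replicate 1 and 5.93 in WT replicate 1. At Mcts2, a retrogene in an intron of H13, it was 6.98 in TKOL replicate 1 and 3.66 in WT replicate 1. At Peg10, a gene derived from a retrotransposon, it was 6.86 in TKOL replicate 1 and 4.49 in the merged TKOL list, and no other Trim28 list had a peak at the island. At the island of Plagl1, which encodes a zinc finger transcription factor, it was 6.73 in TKOL replicate 1 and 3.32 in WT replicate 1. These genes differ in function, and their islands share a Trim28 peak in TKOL replicate 1 and its absence from TKOL replicate 2 and DKO0.

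Peg3, a zinc finger gene, was the control island with Trim28 in both WT lists, with fold enrichments of 4.40 and 2.74 in WT and 6.37 in TKOL replicate 1. Nnat, which encodes a small membrane protein, had 3.32 in WT replicate 1 and 4.83 in TKOL replicate 1. Peaks were found in TKOL replicate 1 and in no other single-replicate Trim28 list at Zrsr1 (5.12), Snrpn (4.39), Mest (3.85), Impact (3.64) and Airn (3.56). Slc38a4, an amino acid transporter gene, had no Trim28 peak at its islands in any list. In the list of merged TKOL replicates, 11 islands had a peak, the same as in TKOL replicate 1, beside 8.45% of the start islands, and the highest values were 15.3 at Nap1l5, 13.8 at Plagl1 and 9.57 at Nnat. The median over the islands with a peak was 5.12 in TKOL replicate 1, beside a median of 3.38 over all peaks of that list.

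Other islands in the windows carried Trim28 in the same list, and they are named after their values were seen. The island within Kcnq1 at chr7:150480863-150482599, the known promoter region of Kcnq1ot1, had 5.68 in WT replicate 1 and 4.34 in TKOL replicate 1. The Gnas island at chr2:174120521-174122052 had 2.79 in WT replicate 2 and 5.89 in TKOL replicate 1. The Grb10 island at chr11:11925414-11926726, at an annotated start inside this adaptor protein gene, had 2.79 in WT replicate 2 and 4.99 in TKOL replicate 1. The island inside Inpp5f at chr7:135831316-135832223 had 3.34 in WT replicate 1 and 6.02 in TKOL replicate 1, and the one in an intron of Trappc9 at chr15:72639521-72641169 had 3.79 and 4.25. None of these 5 islands had a Trim28 peak in TKOL replicate 2 or DKO0. The Inpp5f flank island at chr7:135751846-135752480 did, with 4.12 in WT replicate 1, 4.10 in TKOL replicate 1 and 3.77 in DKO0 replicate 1. By contrast, the island near the 5′ end of Grb10, at chr11:11936363-11938161, had no peak of any mark in any list.

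The paternally methylated regions were measured as stretches set by their position beside a gene. The stretch 2 to 4 kb upstream of H19, a noncoding RNA gene (chr7:149766049-149768048), had 2 Trim28 peaks in TKOL replicate 1, the higher at 5.53, 2 in the merged TKOL list, the higher at 6.60, and none in the 5 other single-replicate lists. H3K9me3 was found there in WT replicate 1 alone, with 3.90 over 268 bp. Between Dlk1 and Meg3 (chr12:110701547-110779210), Trim28 had 1 peak in each WT list, with 3.83 and 6.03, 1 in TKOL replicate 1, with 6.15, 1 in the merged TKOL list, with 5.31, and none in the other lists. Uhrf1 had 3 peaks there in each WT list, the highest at 3.92 and 3.56, and none in TKOL or DKO0. H3K9me3 was there in merged lists alone, with 3 peaks in TKOL and 7 in DKO0, the highest at 2.72 and 2.54. This is the longest of the stretches, and no share for stretches of like length was counted. The stretch 25 to 35 kb upstream of Rasgrf1, a guanine nucleotide exchange factor gene (chr9:89769613-89779612), had a Trim28 peak in TKOL replicate 1, with 9.04, and in the merged TKOL list, with 14.4, and in no other list. Upstream of Zdbf2 by 5 to 25 kb (chr1:63294839-63314838) there was no Trim28 or H3K9me3 peak in any list. The stretches of Dlk1 and Meg3, Rasgrf1 and Zdbf2 were added after the first results were seen.

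Over whole windows, Trim28 showed the same split. WT had a peak in 14 and 14 of the 43 windows, where 27.3% and 24.2% of all protein_coding windows had one. TKOL had 32 and 0 windows, beside 30.3% and 17.5%, and DKO0 had 6 and 6, beside 19.8% and 16.8%. Genes of like length, within 10% of each member, gave a closer background. The share of imprinted windows was 1.01 and 1.15 times theirs in WT, so WT replicate 1 was near that background. In TKOL it was 2.14 and 0 times theirs, and in DKO0 0.58 and 0.69 times. By locus, 24 of 33 loci had a peak in TKOL replicate 1. TKOL exceeded WT by 2 windows on average (exact permutation test, p = 1), and DKO0 was lower than TKOL by 10 windows on average (p = 1). Without TKOL replicate 1 the difference from WT is -14 windows and that of DKO0 from TKOL 6 windows, the opposite directions. With an equal number of peaks per list, TKOL replicate 1 had 28 windows and TKOL replicate 2 had 0, beside 16.5% and 17.1% of protein_coding windows.

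**Figure D2:**
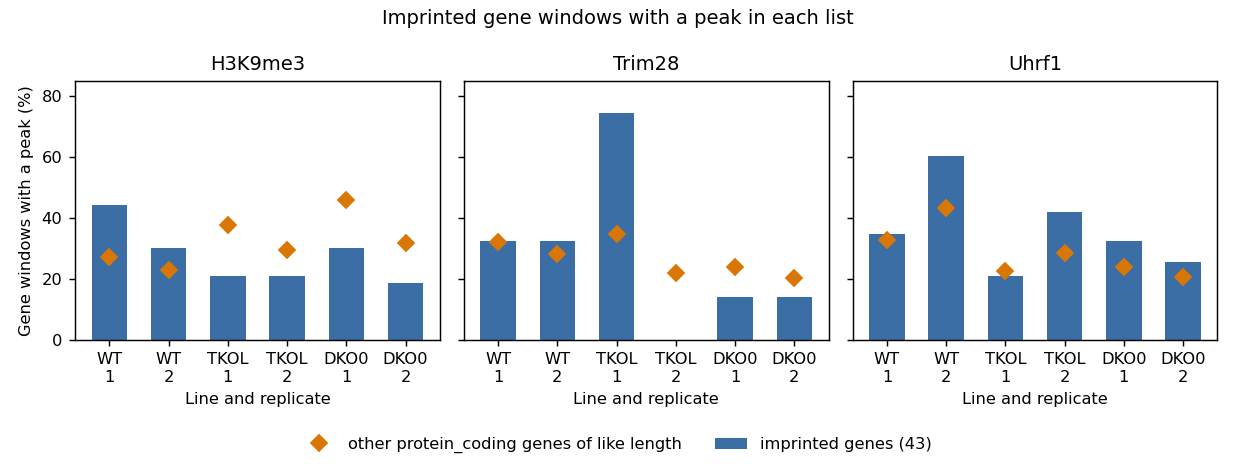
Percent of the 43 windows of imprinted genes with a peak in each single-replicate list (bars) and of other protein_coding genes whose length is within 10% of each member (diamonds), for 3 marks. Trim28 reaches 74.4% in TKOL replicate 1 and 0 in TKOL replicate 2, and H3K9me3 is above the diamonds in WT and below them in TKOL and DKO0.

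All 14 windows with Trim28 in WT replicate 1 also had it in TKOL replicate 1 (43.8% of its 32), and so did 13 of the 14 of WT replicate 2. Both WT lists had 4 windows in common. Over protein_coding windows, 58.6% of those with Trim28 in WT replicate 1 also had it in TKOL replicate 1. Of the 92 islands in these windows, 9 had Trim28 in WT replicate 1, 7 in WT replicate 2 and 24 in TKOL replicate 1, beside 12.8%, 8.41% and 20.7% of all islands. All 9 of WT replicate 1 and 3 of the 7 of WT replicate 2 were among the 24. Peaks in TKOL replicate 1 were also strong, with a median -log10 q of 4.92 in the windows beside 2.17 over the whole list. A -log10 q of at least 5 kept 20 of its windows, 2 in WT replicate 1, 3 in DKO0 replicate 2 and 0 in the 3 other lists. Of protein_coding windows, 5.25%, 3.26% and 3.68% had such a peak in these 3 lists, so that the counts in WT replicate 1 and DKO0 replicate 2 are near the background.

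Few windows had Trim28 in both lists of a line. H13, Peg3 and Commd1 had a peak in both WT lists and neither single-replicate DKO0 list (6.98% of the 43, beside 3.07% of protein_coding windows). H13, a signal peptide peptidase gene, had 3.66 and 2.79 in WT and 6.98 in TKOL replicate 1. Commd1, whose intron holds Zrsr1, had 4.57 and 2.89 in WT, 5.12 in TKOL replicate 1 and 5.51 in the merged DKO0 list. The peaks of H13 and Commd1 in the WT lists lay at different places, so that of these windows only Peg3 had both peaks on the same island. Ube3a, a ubiquitin ligase gene, had the reverse pattern, with no WT peak, 4.06 in TKOL replicate 1 and 3.56 and 3.47 in DKO0. A peak in both DKO0 lists and neither WT list was found in 2.33% of the 43, beside 0.841% of protein_coding windows. Phlda2, a growth-restraining gene, had Trim28 in DKO0 replicate 2, with 7.86 at 6666 bp from its start, and in the merged DKO0 list, with 8.02. Usp29, Ndn, Magel2 and Ascl2 had no peak of any mark in any single-replicate list, and Magel2 had Trim28 at 3.30 in the merged DKO0 list. The share of protein_coding windows without any peak in these lists was not counted.

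The share of Trim28 peaks with the hexamer was higher in these windows than over whole lists in WT replicate 1, WT replicate 2, TKOL replicate 1 and DKO0 replicate 1, and the difference was not tested. In TKOL replicate 1, 18 of 31 peaks (58.1%) had a copy in their central 300 bases, beside 7.56% of all peaks of the list and 1.81% of all windows of 300 bases of the genome. In WT, 9 of 17 peaks in replicate 1 and 3 of 13 in replicate 2 had a copy, beside 4.54% and 4.03%. In DKO0 these were 1 of 7 and 0 of 6, beside 5.03% and 5.73%. Of the 31 peaks in TKOL replicate 1, 20 touched a CpG island extended by 500 bp, and CpG islands hold more copies than other sequence. For H3K9me3, between 0 and 1 peak per list had a copy, of 11 to 27 peaks.

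**Figure D3:**
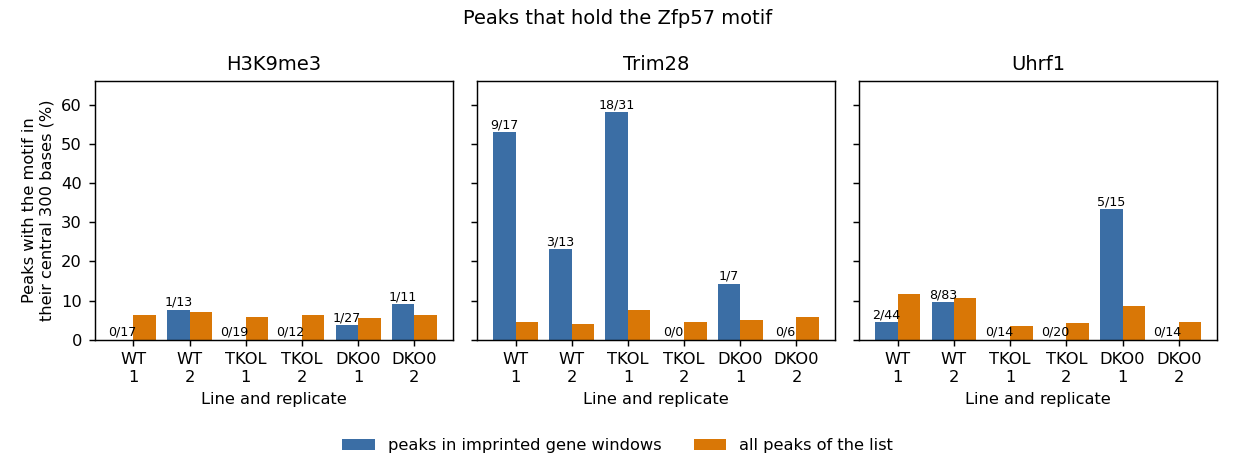
Percent of peaks with TGCCGC or GCGGCA in their central 300 bases, for peaks in windows of imprinted genes (blue, with counts above the bars) and for all peaks of the list (orange), by mark, line and replicate. Trim28 stands at 18 of 31 in TKOL replicate 1 and 9 of 17 in WT replicate 1, and TKOL replicate 2 has no peak in these windows.

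H3K9me3 lists of WT held more of the imprinted windows than those of TKOL. WT had a peak in 19 and 13 of the 43 windows, where 23% and 19% of protein_coding windows had one. TKOL had 9 and 9, beside 33.2% and 24.6%, and DKO0 had 13 and 8, beside 40.6% and 26.7%. The WT lists were thus above the background and the TKOL and DKO0 lists below it, while the lists themselves were longer in TKOL and DKO0. TKOL was lower than WT by 7 windows, with lists that do not overlap (exact two-sided permutation test, p = 0.33, the smallest possible). With an equal number of peaks per list the windows with H3K9me3 were 13 and 13 in WT, 5 and 5 in TKOL and 7 and 4 in DKO0. With an equal number, 18.4% to 23.5% of protein_coding windows had a peak. A -log10 q of at least 5 left 1 window in TKOL replicate 1 and 0 in the other lists, beside 4.82% of protein_coding windows in TKOL replicate 1 and 2.28% to 6.72% in the others.

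Windows with H3K9me3 in both WT lists and in neither TKOL list were those of Blcap, Nnat, Trappc9, Igf2r, Airn and Impact. These are 6 of 43 windows (14%) at 4 loci, beside 0.514% of protein_coding windows. In windows of imprinted genes the WT peaks were weak, with a median -log10 q of 1.57 and 1.42. The medians over the whole WT lists were 1.76 and 1.88. Impact, a regulator of translation, had 3.38 and 3.54 at its control island in WT and no H3K9me3 peak in the single-replicate lists of TKOL or DKO0. Airn, the noncoding RNA that silences Igf2r, shares 2.89 and 3.42 in WT with Igf2r, from peaks 2412 and 1901 bp from the Airn start. Trappc9 had 3.12 and 3.16 in WT, both on the intronic island that also had Trim28. Nnat and its host gene Blcap share peaks of 2.93 and 3.27, outside the Nnat island, at 932 and 1171 bp from the Blcap start. The merged lists had Blcap at 3.13 in TKOL and 2.68 in DKO0 and Airn at 2.77 in TKOL. They also had Igf2r at 2.77 in TKOL and 2.33 in DKO0. In the single-replicate lists of DKO0, where Dnmt1 was restored, Airn, Blcap, Nnat, Trappc9 and Impact had no H3K9me3 peak, and Igf2r had 2.63 in DKO0 replicate 1, from a peak 21544 bp from its nearest start.

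**Figure D4:**
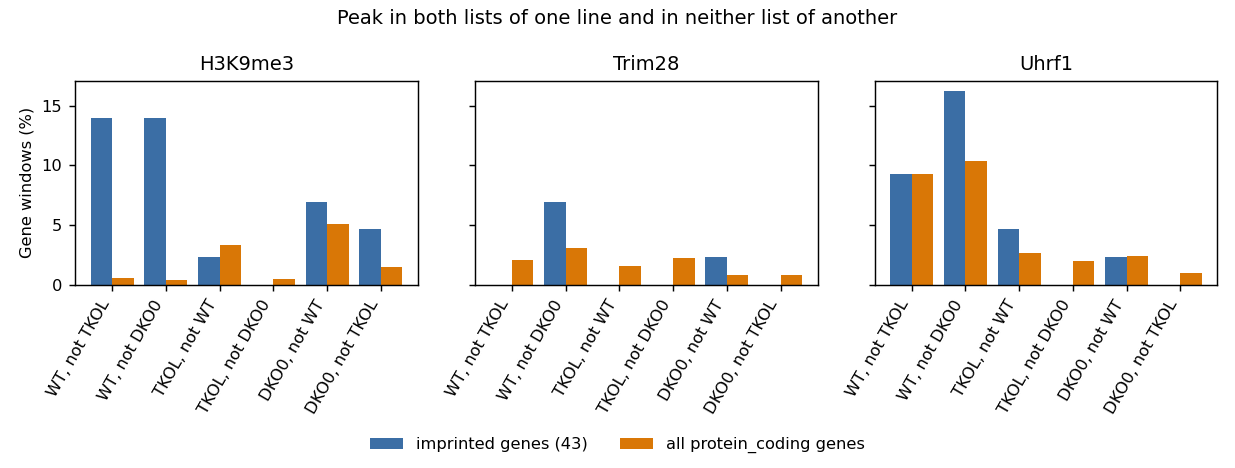
Percent of windows with a peak in both lists of a line and in neither list of another, for the 43 imprinted genes (blue) and all protein_coding genes (orange), by mark. For H3K9me3 the pattern of WT and not TKOL holds for 14% of the imprinted genes and 0.514% of protein_coding genes.

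Other H3K9me3 windows differed in place and direction. Cdh15, a cadherin gene, had 3.39 and 3.20 in WT, 3.16 in TKOL replicate 2 and none in DKO0, with different peaks in each list. Commd1 had no WT peak, 3.00 and 3.16 in TKOL and 2.71 and 3.29 in DKO0. In TKOL these lay at the island chr11:22726263-22726740 in its 3′ flank, and the Zrsr1 control island had none. Zdbf2 had no WT peak, 3.67 in TKOL replicate 1, and 2.39 and 4.58 in DKO0. Commd1 alone had H3K9me3 in both TKOL lists and neither WT list (2.33% of the 43, beside 3.34% of protein_coding windows). Zdbf2, Commd1 and Slc38a4 had it in both DKO0 lists and neither WT list (6.98%, beside 5.05%). Both shares are near the background. Kcnq1, a potassium channel gene, had 5.21 in WT replicate 1, none in the single TKOL lists, and 2.95 and 3.29 in DKO0, at places other than the Kcnq1ot1 island. The merged lists had 23 peaks in this window in TKOL, the highest at 3.92, and 19 in DKO0, the highest at 4.04, so TKOL did not lack the mark there. Kcnq1 and Slc38a4 were the windows with H3K9me3 in both DKO0 lists and neither single TKOL list (4.65%, beside 1.5% of protein_coding windows), and the merged TKOL list had Slc38a4 at 3.29.

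Herc3, Ube3a and Inpp5f had an H3K9me3 peak in all 6 lists, and in Inpp5f it lay on an island that also had Trim28. The share of protein_coding windows with H3K9me3 in all 6 lists was not counted, so these windows are listed without a background. In Inpp5f, a phosphoinositide phosphatase gene, peaks lay 2215 to 6139 bp from the nearest start in the flank in all 6 lists, and DKO0 replicate 1 had another in an intron. The flank island at chr7:135751846-135752480 had H3K9me3 in all 6 lists beside its Trim28 in WT replicate 1, TKOL replicate 1 and DKO0 replicate 1. In Ube3a they lay in an intron, 69417 to 71279 bp from the nearest start. The Herc3 peaks lay 6860 to 8497 bp from its start, where the island chr6:58772871-58773233 had no peak in WT, 2.04 and 3.75 in TKOL and 2.20 and 2.79 in DKO0.

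At the control islands H3K9me3 was in WT lists alone. Peaks were found at 2 of 12 in each WT list, beside 1.28% and 0.936% of start islands, and at 0 of 12 in each TKOL and DKO0 list, beside 1.45%, 0.768%, 3.04% and 1.21%. Impact had it in both WT lists, Mcts2 in replicate 1 (3.33) and Peg10 in replicate 2 (3.38). With islands extended by 2 kb, the counts were 5 and 4 in WT, beside 2.49% and 1.56%, and 0 in the 4 other lists, beside 1.79% to 5.82%. The difference between TKOL and WT at 500 bp was -2 islands (exact permutation test, p = 0.33).

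For Uhrf1, the share of imprinted windows was above that of all protein_coding windows in all 6 lists, but in TKOL replicate 1 it was 0.927 times that of genes of like length, and in the other lists 1.06 to 1.47 times. WT had a peak in 15 and 26 of the 43 windows, where 26.5% and 36.8% of protein_coding windows had one. TKOL had 9 and 18, beside 18.6% and 24.8%, and DKO0 had 14 and 11, beside 21.2% and 17.5%. TKOL was lower than WT by 7 windows on average (exact permutation test, p = 0.667) and DKO0 lower than TKOL by 1 (p = 1), and replicates of a line differed by up to 11 windows. With an equal number of peaks per list, both differences turned to 2.5 windows higher. WT lists were also the longest, at 30133 and 49155 peaks beside 11438 to 17437.

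A limma fit over 8589 windows called 5 of the 26 windows of imprinted genes that could be tested between TKOL and WT, of 23.4% called in all. In simulated lists with differences put in, this fit also called windows made without one, so its calls are listed and no gene is described as changed on their strength. Rtl1, a gene derived from a retrotransposon, had 3.46 and 3.24 in WT and no other Uhrf1 peak. Airn had 3.21 and 3.07, Igf2r, the receptor that clears Igf2, had 3.06 and 2.90, and Rian, a noncoding RNA, had 3.03 and 2.90, with no peak in the single TKOL and DKO0 lists. The merged lists had Airn at 2.70 in TKOL and 2.71 in DKO0. Rtl1, Airn, Igf2r and Rian thus entered the fit through the WT lists alone, and with either WT list left out they could not be tested. The other call, of Copg2, was lost with either WT list left out. Copg2, a coat protein gene, had no WT peak, 3.78 and 3.46 in TKOL and 3.71 and 4.13 in DKO0 (log2 difference 1.85 ± 0.17 SE between TKOL and WT, adjusted p = 0.0021, limma). Windows with Uhrf1 in both WT lists and neither TKOL list were 9.3% of the imprinted genes, beside 9.25% of protein_coding windows, so the share is near the background. Between DKO0 and TKOL, limma called 0 of the 26, with 0 at an unadjusted p under 0.05, of 5.67% called in all.

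The Kcnq1, Kcnk9 and H13 windows had Uhrf1 in both WT lists, in TKOL replicate 2 and in neither DKO0 list. They are among 7 windows with Uhrf1 in both WT lists and neither DKO0 list (16.3% of the 43, beside 10.4% of protein_coding windows). Kcnq1 had 3.08 and 3.03 in WT and 3.48 in TKOL replicate 2. Kcnk9, a potassium channel gene, had 3.17 and 2.77 in WT and 3.44 in TKOL replicate 2, and H13 had 3.10 and 2.63 in WT and 3.26 in TKOL replicate 2. Snrpn, a gene of the splicing machinery, had no WT peak, 3.12 and 3.48 in TKOL and 3.46 in DKO0 replicate 1, which alone lay on its control island. Snrpn and Copg2 were the windows with Uhrf1 in both TKOL lists and neither WT list (4.65%, beside 2.68% of protein_coding windows). Sgce, Rasgrf1 and Trappc9 had Uhrf1 in all 6 lists. The share of protein_coding windows with Uhrf1 in all 6 lists was not counted, and Rasgrf1 (117202 bp) and Trappc9 (471584 bp) are long genes. In Trappc9 all 6 lists had a peak at the same place in an intron, 365662 to 365782 bp from the nearest start, with fold enrichments of 3.51 and 3.00 in WT, 3.21 and 6.57 in TKOL and 4.46 and 4.04 in DKO0.

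Among islands, limma called 5 of 12 tested islands of imprinted genes lower in Uhrf1 in TKOL than in WT, of 43.1% called lower in all. They lie at chr6:4705055-4705522 in Peg10 (3.00 and 3.22 in WT), chr6:58772871-58773233 (3.51 and 3.33) and chr6:58775085-58775542 (3.22 and 3.33) upstream of Herc3, chr7:135752947-135753645 upstream of Inpp5f (3.00 and 3.41) and chr15:96850018-96850422 in Slc38a4 (2.97 and 3.08). None of the 5 had a Uhrf1 peak in TKOL or DKO0. These islands thus entered the fit through the WT lists alone, and with either WT list left out they could not be tested. The neighbouring Inpp5f island at chr7:135751846-135752480 had 3.00 and 3.41 in WT, none in TKOL and 3.13 in DKO0 replicate 2. The island chr11:22726263-22726740 beside Commd1 was called lower in DKO0 than in TKOL, of 2.48% called lower in all, with 3.52 and 3.38 in TKOL, none in the single DKO0 lists, 2.74 in the merged DKO0 list, and 3.68 and 3.16 in WT. This call (limma, adjusted p = 0.027) was lost with the replicate block (adjusted p = 0.153), without either DKO0 list, without either WT list, with covered base pairs and with the spread no lower than the trend. The Mest islands at chr6:30686773-30687497 and chr6:30687592-30688564 had no Uhrf1 in WT, 3.16 in TKOL replicate 2 and 3.38 and 2.83 in DKO0.

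Uhrf1 at the control islands was rare. It was found at 1 of 12 in each WT list, beside 0.894% and 1.89% of start islands, at 0 and 1 in TKOL, beside 0.405% and 4.72%, and at 3 and 1 in DKO0, beside 7.21% and 2.18%. In WT these were islands of Slc38a4, at 2.97 in replicate 1 and 3.08 in replicate 2 on chr15:96850018-96850422, and at 3.26 in replicate 2 alone on chr15:96884760-96885837, and those of DKO0 replicate 1 were Mest, Plagl1 (3.43) and Snrpn (3.46). The merged DKO0 list had 4 of 12, beside 13.8% of start islands.

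For H3K9me3 and Trim28, limma called 0 windows and 0 islands, of imprinted genes or of all features tested. At an unadjusted p under 0.05, 6 windows of imprinted genes were found for H3K9me3 between TKOL and WT (Blcap, Nnat, Commd1, Trappc9, Airn and Impact), the lowest with an adjusted p of 0.297, and none for Trim28. Among islands of imprinted genes there were 4 for H3K9me3 between TKOL and WT and none for Trim28. The 6 windows were among 19 tested, and the share of all tested windows at this unadjusted p was not counted. Blcap, Nnat, Trappc9, Airn and Impact entered the H3K9me3 fit through the WT lists alone, and Commd1 through those of TKOL and DKO0. Their low p follows from that pattern, and no gene is described as changed on its strength. Without TKOL replicate 1, limma again called 0 for Trim28, with 4 windows of imprinted genes at an unadjusted p under 0.05 between TKOL and WT (lowest adjusted p 0.223) and 2 between DKO0 and TKOL (0.502), and with 1 and 0 islands. Between DKO0 and TKOL there was 1 window for H3K9me3 at an unadjusted p under 0.05, Slc38a4, which entered the fit through the DKO0 lists alone. In simulated lists of these marks with few differing features the fit called none of them, so a count of 0 says little here.

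The lists of merged replicates held more windows than most single lists. For H3K9me3, TKOL had 17 and DKO0 16 of the 43 windows, beside 39.3% and 39.8% of protein_coding windows. For Trim28 these were 34 and 15, beside 36.7% and 35.2%, and for Uhrf1 18 and 26, beside 38% and 41.2%. At the 12 control genes the merged lists had H3K9me3 at 0 in both lines, beside 2.34% and 2.78% of start islands. The merged lists have no replicate.

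Among 30 other imprinted genes in the annotation, 8 had Trim28 in each TKOL list, beside 5 and 10 in WT and 10 and 6 in DKO0. H3K9me3 was found in 7 and 5 of them in WT, 13 and 11 in TKOL and 14 and 10 in DKO0, and Uhrf1 in 9 and 13, 12 and 10, and 6 and 7. Of 17 genes for factors that act on control regions, such as Zfp57, Setdb1 and Dnmt1, 6 and 3 had Trim28 in WT, 6 and 6 in TKOL and 2 and 4 in DKO0. H3K9me3 was found in 2 and 0, 5 and 6, and 8 and 3 of these, and Uhrf1 in 4 and 3, 1 and 5, and 6 and 6. Over protein_coding windows, the Trim28 shares in the same order were 27.3%, 24.2%, 30.3%, 17.5%, 19.8% and 16.8%. For Uhrf1 they were 26.5%, 36.8%, 18.6%, 24.8%, 21.2% and 17.5%. Those of H3K9me3 were 23%, 19%, 33.2%, 24.6%, 40.6% and 26.7%, so they too were lower in WT than in TKOL and DKO0.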

How the data were processed

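The 24 broad peak lists of H3K9me3, Trim28 and Uhrf1 were analysed. The authors aligned reads to mm9 with BWA, removed duplicates with GATK, called broad peaks with MACS2 and merged replicates on read level for TKOL and DKO0. Each peak was deposited with a fold enrichment (a ratio over background estimated nearby) and with -log10 of the q-value. The lists carry no read depth, so precision rests on the number of lists. Peaks on chromosomes 1 to 19, X and Y were used, and their lowest -log10 q was 1. Samples were grouped by their labels.

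Windows and CpG islands were intersected with peaks, and all 24 lists gave the same counts with bedtools 2.31.1. CpG islands were found in the genome sequence (windows of 200 bp, GC of at least 50%, observed to expected CpG of at least 0.6, length of at least 300 bp). Counts of windows were compared by exact two-sided permutation tests. Log2 of the highest fold enrichment (1 where no peak) was fitted with limma 3.58.1 (trend, Benjamini-Hochberg over all features with a peak in at least 2 of 6 lists, threshold 0.05), tested on simulated data. The test of control islands was added later. Named genes are those called, up to 10 per mark with the largest difference among features with a peak in both lists of a line and none of another, H19, and the control genes. Exceptions are marked. Members and lists were chosen with earlier results of these data known. Python 3.11.15, numpy 2.4.6, pandas 2.3.3 and R 4.3.3 were used. Hairpin bisulfite counts, WGBS, MeDIP and Nanopore data were not analysed here.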

Additional observations from a re-analysis of the deposited data

How the results depend on the processing

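Peak lists give presence of a peak and not reads, replicates of a line differed by up to 32 windows, and 2 lists against 2 cannot reach p under 0.33. The alternatives were other flanks, a -log10 q of at least 5, lists cut to equal length, the midpoint of a peak, covered base pairs, no filter, stricter islands, each list left out, and a replicate block. Tests at control islands and a fit with the spread no lower than its trend were chosen after seeing the data. Of the alternatives, 218 stayed the same or on the same side, 12 reversed a direction, 22 weakened, 6 strengthened and 6 moved a value, and the cause was not tested. The 218 include counts that were 0 and stayed 0, as for all limma calls of Trim28 and nearly all of H3K9me3. They also include the replicate block for counts of windows and control islands, which has the main value by construction. The tally therefore does not measure how stable the results are. At a -log10 q of at least 5, windows with H3K9me3 differed by 0.5 (TKOL minus WT) and -0.5 (DKO0 minus TKOL), windows with Uhrf1 by 1 and 0, and control islands with H3K9me3 by 0 (TKOL minus WT) and with Uhrf1 by 0 in both contrasts, and limma called 0 Uhrf1 windows and islands. A flank of 25 kb gave -3 for Trim28 windows (TKOL minus WT). With lists of equal length, Uhrf1 windows differed by 2.5 in both contrasts, and limma called 3 and 1 Uhrf1 windows and 2 and 2 islands. Without a filter limma called 1 Uhrf1 window (TKOL minus WT) and 2 H3K9me3 islands (TKOL minus WT), the latter without a trend, which could not be fitted. Stricter islands left 0 Uhrf1 islands in both contrasts, and covered base pairs or a spread no lower than the trend left 0 between DKO0 and TKOL. With each list left out in turn, the difference in windows ranged from -10 to -4 (TKOL minus WT) and -1 to 4 (DKO0 minus TKOL) for H3K9me3, from -14 to 18 and -26 to 6 for Trim28, and from -12.5 to -1.5 and -5.5 to 3.5 for Uhrf1. Control islands ranged from -3 to 8 and -11 to 0 for Trim28, and from -1 to 0 and 0.5 to 2.5 for Uhrf1. Called Uhrf1 windows ranged from 0 to 9 and 0 to 3, and islands from 0 to 7 and 0 to 3. Same-numbered lists deviated together for H3K9me3 in TKOL and DKO0 (correlation 0.355 over windows) and not in the 8 other pairs of lines (-0.034 to 0.042), so the numbers do not pair the lists. The replicate block left 0 Uhrf1 islands called between DKO0 and TKOL, and 5 windows and 5 islands between TKOL and WT.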
